A study of Rattus norvegicus with 2 samples.

Results

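Protein phosphatases 1 (PP1), 2A (PP2A) and 2B (calcineurin) remove phosphate from serine and threonine residues. The genes examined were 8: Ppp1ca, Ppp1cb and Ppp1cc, the catalytic subunits of PP1, Ppp2ca and Ppp2cb, those of PP2A, Ppp3ca and Ppp3cb, catalytic subunits of calcineurin, and Ppp3r1, its regulatory B subunit. Their probe sets were those that the platform's annotation pairs with one of these symbols alone. This gave 9 probe sets of 7 genes, among 8740 non-control probe sets and 4736 genes with a symbol. Ppp2ca appears only on 2 probe sets that list a second gene as well, so no value is given for it. The set was chosen by these same measurements, since the ratios of Ppp1cb and Ppp1cc were known to be among the higher ones in synaptosomes, so the differences below are descriptions.

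The study set RNA of synaptosomes, nerve endings pinched off from homogenised tissue with attached postsynaptic membrane, against RNA of the whole hippocampus, to find mRNAs that are more abundant at synapses. Both samples were hippocampal RNA of Sprague Dawley rats at postnatal day 70, without a stated genotype or treatment, and each was measured on 1 array after amplification of cDNA. Neither the number of animals pooled nor whether both samples share them is stated in the labels. With 1 array per group there is no replicate error and no test, and the number of arrays limits the precision.

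PP1 acts through many regulatory subunits that place its catalytic subunit at a substrate, and spinophilin and neurabin hold it in dendritic spines. Calcineurin is switched on by calcium and calmodulin and relieves PP1 of its inhibitors, a cascade best known in the hippocampus for long-term depression. PP2A works as a trimer of scaffold, catalytic and exchangeable B subunits, and dephosphorylates tau among other neuronal proteins.

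The probe sets of the 3 PP1 catalytic subunits had higher signals in synaptosomes than in the whole hippocampus, where none rose above the noise. Ppp3ca, the calcineurin subunit measured well above the noise, had nearly equal signals on the arrays. Whether the PP1 probe sets tell these genes apart was not examined, since no probe sequences were given. Ppp1cc was at least 9.41-fold, Ppp1ca at least 6.84-fold and Ppp1cb 5.06-fold higher, and Ppp3ca differed 1.11-fold. Of the 7 genes 3 exceeded 2-fold upward and 0 downward. Among all 2735 genes that passed the filter on dim probe sets, 19.1% did so upward and 14.3% downward. These shares are given for scale, since the higher PP1 genes were part of the choice. Fewer nerve endings or cells of one kind and less RNA in each cannot be told apart in these bulk samples.

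Folds were formed as follows. Signals under a floor of 846, the median of all non-control values, were set to it. The log2 ratio is synaptosomes minus hippocampus, and the median ratio of filtered probe sets, -0.17, was subtracted, which makes a higher gene's fold 1.13 times the quotient of its signals. "At least" means that the lower reading lay at the floor, that of the hippocampus for a higher gene and of the synaptosomes for a lower one. Such a bound holds only with both readings at face value. Many deposited values are negative, and the value that 95% of them do not exceed in size, 2912.6 for the synaptosome array and 5280.25 for that of the hippocampus, serves here as a measure of spread around 0. The other available error was how far log2 ratios of the same gene scatter over its probe sets, a standard deviation (SD) of 0.90 over 658 genes, called the probe set SD below. It does not include the scatter between animals, preparations or amplifications.

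Ppp1cc encodes the gamma catalytic subunit of PP1, the form known to be concentrated in dendritic spines. Its probe set S78217_s_at read 7073 in synaptosomes and 684 in the hippocampus. The synaptosome reading was above that array's spread around 0 and the hippocampus reading was below the floor. The centred log2 ratio was at least 3.23, and the bound without centring was 8.36-fold.

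Ppp1ca encodes the alpha subunit, found in the nucleus and cytoplasm of many cell types as well as in spines. The probe set S78215_s_at read 5146 in synaptosomes and -3018 in the hippocampus. A negative reading gives no fold of its own, and the log2 ratio of at least 2.77 was measured against the floor. The bound without centring was 6.08-fold.

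Ppp1cb encodes the beta subunit, known as the catalytic partner of the myosin-targeting subunits. It had 2 probe sets designed on one source sequence, so they are not independent. S78218_at read 6603 in synaptosomes and 1467 in the hippocampus, both above the floor, for a log2 ratio of 2.34, or 4.50-fold without centring. S78218_g_at read 5979 and 686, a log2 ratio of at least 2.99. Both probe sets read higher in synaptosomes.

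**Figure D1:**
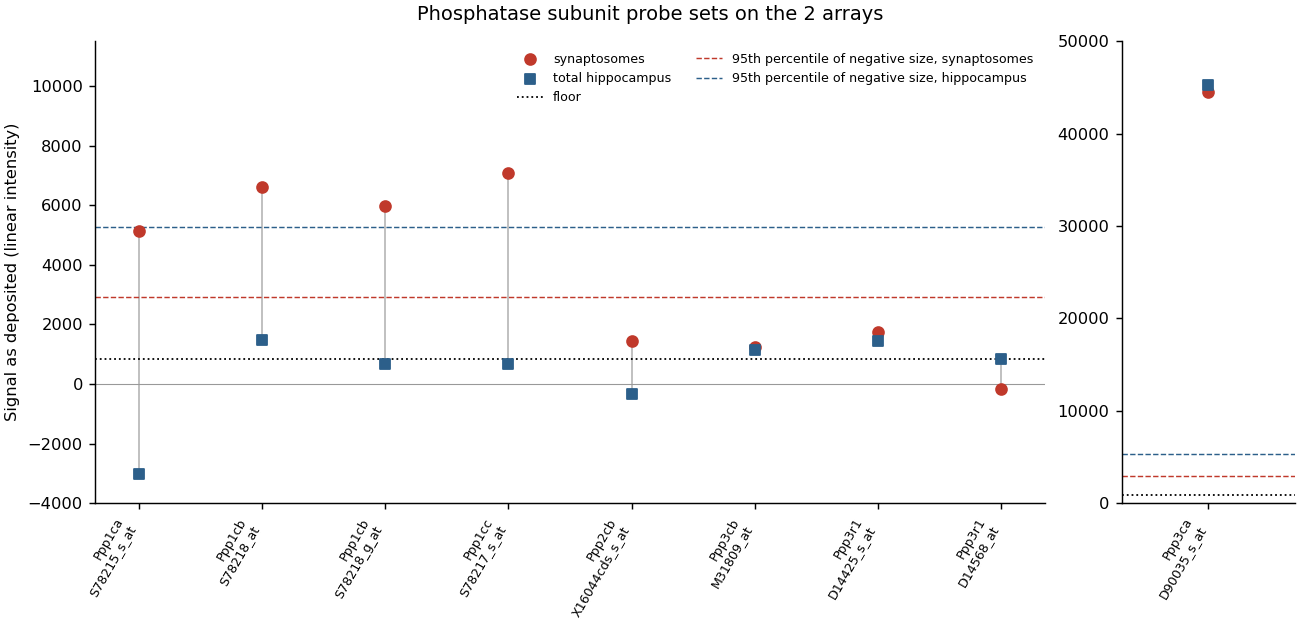
Deposited signal (linear intensity) of each probe set on the synaptosome array (circles) and the total hippocampus array (squares), with Ppp3ca on its own scale. The dotted line is the floor of 846, and the dashed lines are each array's spread around 0 (2912.6 and 5280.25), the size that 95% of negative values do not exceed. The 4 PP1 probe sets lie between 5146 and 7073 in synaptosomes and between -3018 and 1467 in the hippocampus, while the Ppp3ca signals almost coincide.

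All 4 hippocampus readings of PP1 probe sets, from -3018 to 1467, lay within that array's spread around 0 of 5280.25, so the hippocampus level of these mRNAs was not measurable and the sizes of the folds are uncertain. The 4 synaptosome readings, from 5146 to 7073, were all above the corresponding 2912.6. Between the arrays the readings differed by 5136 to 8164, which errors as large as both spreads together would cover. The direction therefore rests on readings taken at face value and was not tested. With the floor raised to 5280.25 on both arrays the log2 ratios were 0.51 for Ppp1cc and 0.41 for Ppp1cb, Ppp1ca no longer had a ratio, and no member was 2-fold higher, where 8.27% of all genes then were. With the floor at the 75th percentile of the values, 2798.5, they were 1.42, 1.32 and 0.96 for Ppp1cc, Ppp1cb and Ppp1ca. Both floors lie above all the PP1 hippocampus readings, so each of these ratios is a bound.

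The PP1 promoters are printed because these are the genes whose signals were higher together, with that of Ppp3ca as the member with nearly equal signals. Each is the RefSeq window from 250 bases before to 50 after a transcript's start on rat assembly GRCr8, read 5′ to 3′ on the gene's strand. Capitals mark GC boxes (GGGCGG or its complement CCGCCC) and cyclic AMP response half-sites (TGACG or its complement CGTCA).
Ppp1ca, chr1:210914326-210914625, + strand: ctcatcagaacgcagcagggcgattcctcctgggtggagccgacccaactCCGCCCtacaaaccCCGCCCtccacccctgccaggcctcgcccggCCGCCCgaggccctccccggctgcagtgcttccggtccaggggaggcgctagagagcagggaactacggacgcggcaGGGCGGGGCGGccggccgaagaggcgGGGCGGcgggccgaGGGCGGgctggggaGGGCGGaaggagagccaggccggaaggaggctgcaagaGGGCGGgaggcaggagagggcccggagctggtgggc
Ppp1cb, chr6:29712786-29713085, - strand: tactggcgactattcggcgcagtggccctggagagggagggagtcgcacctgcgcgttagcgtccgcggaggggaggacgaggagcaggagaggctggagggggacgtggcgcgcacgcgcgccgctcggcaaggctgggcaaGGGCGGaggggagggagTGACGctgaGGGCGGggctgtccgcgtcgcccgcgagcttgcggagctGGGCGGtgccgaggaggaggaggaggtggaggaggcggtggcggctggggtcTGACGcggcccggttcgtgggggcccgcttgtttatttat
Ppp1cc, chr12:40061252-40061551, - strand: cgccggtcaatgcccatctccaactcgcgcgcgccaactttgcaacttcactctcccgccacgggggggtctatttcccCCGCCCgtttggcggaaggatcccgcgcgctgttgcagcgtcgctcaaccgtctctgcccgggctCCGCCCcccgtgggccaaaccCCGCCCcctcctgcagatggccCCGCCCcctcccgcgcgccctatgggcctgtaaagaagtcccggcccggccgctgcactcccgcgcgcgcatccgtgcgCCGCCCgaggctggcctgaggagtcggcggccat
Ppp3ca, chr2:227839357-227839656, + strand: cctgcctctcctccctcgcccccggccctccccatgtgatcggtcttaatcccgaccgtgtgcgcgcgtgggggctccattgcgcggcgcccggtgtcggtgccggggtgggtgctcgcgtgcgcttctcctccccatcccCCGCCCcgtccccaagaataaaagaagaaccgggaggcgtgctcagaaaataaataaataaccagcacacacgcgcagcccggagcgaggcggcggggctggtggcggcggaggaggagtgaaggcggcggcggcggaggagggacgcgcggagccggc

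The windows of Ppp1ca, Ppp1cb and Ppp1cc held 9, 3 and 5 GC boxes, and that of Ppp3ca held 1. Of the 27457 windows of this length in the table, 34.9% held at least 1. The half-site occurred 2 times in the Ppp1cb window and 0 times in the other 3 printed, against 22.0% of all windows with at least 1. CCAAT (complement ATTGG) and TATAAA (complement TTTATA) were in none of the 4, where 37.7% and 14.3% of all windows held them. In the Ppp1ca window 2 neighbouring GC boxes share 1 base, and no other marked motifs of the 4 windows overlap. The G and C content was 75%, 72.0%, 72.3% and 70.0% in the order printed, against a median of 52.3%. A match is only a run of letters, and nothing about RNA in nerve endings was read from it. Of the other members with a value, Ppp3cb and Ppp3r1 have a window in the table, with 6 and 4 GC boxes, and Ppp2cb is named only.

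Ppp2cb, the beta catalytic subunit of PP2A, lay just under 2-fold. Its probe set X16044cds_s_at read 1436 in synaptosomes and -345 in the hippocampus, at least 1.91-fold or a log2 ratio of 0.93. Both readings were within the spread around 0 of their arrays, so the presence of this mRNA was not resolved in either sample. Its bound was 1.03 times the probe set SD.

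Ppp3ca, the alpha catalytic subunit of calcineurin and the form most associated with forebrain neurons, was the member measured well above the spread around 0 on both arrays. D90035_s_at read 44543 in synaptosomes and 45236 in the hippocampus. The log2 ratio was 0.15 with centring and -0.02 without it, so its sign depends on the centring, and quantile normalization gave 0.51. In each of these settings its size was under the probe set SD of 0.90.

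Ppp3cb, the beta catalytic subunit, read 1237 in synaptosomes and 1127 in the hippocampus with M31809_at, a log2 ratio of 0.30. Ppp3r1, the calcium-binding B subunit without which the enzyme is inactive, read 1736 and 1444 with D14425_s_at, a log2 ratio of 0.44. Its other probe set, D14568_at, read -181 and 822, at the floor on both arrays, and gave no ratio. The readings of Ppp3cb and Ppp3r1 all lay within the spread around 0, so neither a level nor a difference was resolved for them.

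**Figure D2:**
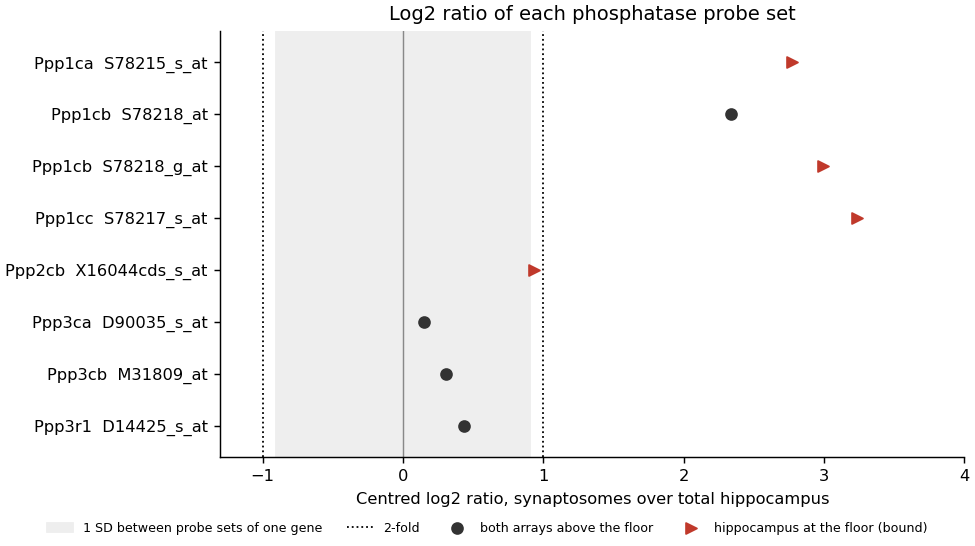
Centred log2 ratio of synaptosomes over total hippocampus for each probe set with a ratio. Triangles are bounds with the hippocampus at the floor, circles have both arrays above it, the grey band is 1 probe set SD (0.90) and dotted lines are 2-fold. The 4 PP1 probe sets lie from 2.34 to 3.23, Ppp2cb at 0.93 and the 3 calcineurin genes from 0.15 to 0.44.

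Ppp1cb and Ppp3ca were the pair from PP1 and calcineurin that had both arrays above the floor with Ppp3ca well resolved. The log2 ratio of Ppp1cb was 2.19 above that of Ppp3ca, a gap that the choice of Ppp1cb as a higher gene helped to set. The gap was 1.74 with quantile normalization, 1.26 with the floor at 2798.5 and 0.34 with the floor at 5280.25. At both raised floors the hippocampus reading of Ppp1cb, 1467, was set to the floor, so 1.26 and 0.34 are bounds. The PP1 genes cannot be ordered among themselves, since the values of Ppp1ca and Ppp1cc are bounds that move with the floor. With the floor at the 40th percentile of the values, Ppp1ca stood at 3.74, Ppp1cc at 3.53 and Ppp1cb at 2.33. Over the 7 genes the median log2 ratio was 0.93, and over all 2735 genes it was 0.00. Ppp1ca, Ppp1cc and Ppp2cb passed the filter only through their synaptosome signal and had to come out higher, so neither the count nor the median supports a difference.

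**Figure D3:**
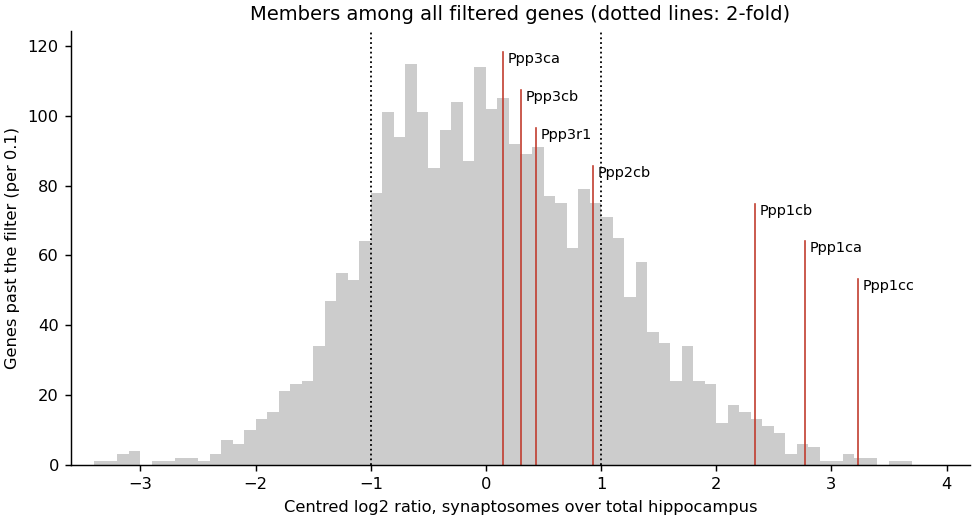
Number of genes past the filter at each centred log2 ratio of synaptosomes over total hippocampus, in bins of 0.1, with the 7 members marked by red lines and 2-fold by dotted lines. Ppp1cb, Ppp1ca and Ppp1cc stand in the upper tail at 2.34, 2.77 and 3.23, and the calcineurin genes lie near the centre. Only Ppp1cb and the calcineurin genes had both arrays above the floor.

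The genes nearest to Ppp1cb in their pair of log2 signals, by Euclidean distance over the 2 arrays among 2174 genes with both signals above the floor, were Celsr3, Endod1 and Cyp2b15, at distances of 0.11, 0.14 and 0.17. Those nearest to Ppp1cc among 240 genes above the floor in synaptosomes only were Nos1ap, Inpp4a and Gaa, at 0.07, 0.07 and 0.08. For these the hippocampus value is the floor, so the likeness is in the synaptosome signal alone. Likeness over 2 arrays is a weak description.

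Regulators of PP1 had members in both directions. Of 28 listed, 10 had a probe set of their symbol alone and 8 passed the filter, of which 2 lay past 2-fold upward and 1 downward, with a median log2 ratio of 0.65. These shares are close to the 19.1% and 14.3% of all genes, and so were those of the PP2A regulators. Ppp1r10, a nuclear targeting subunit also called PNUTS, was 3.26-fold higher with signals of 3489 and 1206. Ppp1r16b, a membrane-associated targeting subunit, was 3.0-fold higher with 6542 and 2452. These hippocampus signals too lay within the spread around 0. Ppp1r13l, an inhibitor of p53 known as iASPP, was at least 8.46-fold lower with 485 and 8058. Ppp1r9b, or spinophilin, which was chosen after its values were seen, gave -0.51 and -0.46 on the log2 scale, so this anchor of PP1 in spines was not higher with either probe set. The first probe set read 4455 and 7120, above the spread around 0 on both arrays, and the second 2750 and 4266, within it on both. Ppp1r9a, or neurabin, also chosen after its values were seen, read 1366 and -439 and did not pass the filter.

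Regulators of PP2A also had members in both directions. Of 26 listed, 12 were on the array and 10 passed the filter, with 2 higher, 1 lower and a median of 0.50. Ppp2r2a, a regulatory B subunit, was at least 4.86-fold higher with M83298_g_at (3653 and -74) but M83298_at (1054 and 1739) gave a log2 ratio of -0.55. These probe sets share a source sequence and disagree in sign. Strn4, a striatin of the B‴ class, was 2.15-fold higher, and its other probe set was at the floor on both arrays. Ensa, an inhibitor of PP2A when phosphorylated, was 2.56-fold lower. The hippocampus reading of Strn4, 2323, and the synaptosome reading of Ensa, 2689, lay within the spread around 0, so the sizes of these folds are uncertain. Ppp2r1a, the scaffold subunit, also chosen after its values were seen, read 15819 in synaptosomes and 17639 in the hippocampus, a log2 ratio of 0.01, and -0.39 with its second probe set. Like Ppp3ca it was far above the spread around 0 on both arrays.

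Of 15 partners of calcineurin, 6 were on the array and 3 passed the filter, with 0 higher, 1 lower and a median of 0.46. For this list and the other phosphatases below, the shares over all genes were 19.1% higher and 14.3% lower. Calm2, one of the genes for calmodulin, which activates the enzyme, was 2.46-fold lower, with 54209 in synaptosomes and 149895 in the hippocampus. Cabin1, an inhibitor of calcineurin, had the highest log2 ratio, 0.88, and its second probe set was at the floor on both arrays. Of 19 other serine/threonine phosphatases, 7 were on the array and 3 passed the filter, with 1 higher, 0 lower and a median of 0.84. Ppm1b, a magnesium-dependent phosphatase, was 2.45-fold higher by its brighter probe set, and a dimmer one gave a log2 ratio of -0.36. Its hippocampus reading of 2429 lay within the spread around 0. Ilkap, a phosphatase of integrin-linked kinase signalling, was lowest at -0.41.

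Neuronal substrates of these enzymes had members in both directions. All 13 of 15 listed that were on the array passed the filter. The median log2 ratio was 0.33, and 2 were higher and 2 lower, beside 19.1% and 14.3% of all genes. These counts take Marcks as higher and Bin1 as lower from their brightest probe sets, and other probe sets of both go the other way. Gria1 and Grin2a, counted as neither, each had a dimmer probe set past 2-fold upward, with log2 ratios of 1.48 and 1.10. Synj1, the phosphoinositide phosphatase synaptojanin, which calcineurin dephosphorylates at nerve endings, was 2.60-fold higher, with 33177 and 14367, and its second probe set gave 2.65-fold. Marcks, an actin-binding protein, was 2.45-fold higher with its brightest probe set and had negative log2 ratios, down to -0.92, with 3 others. Bin1, or amphiphysin II, was 2.87-fold lower with rc_AI102031_at and at least 5.43-fold higher with rc_AI102031_g_at, so no direction can be given. Gap43, a growth cone protein, was 2.19-fold lower.

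**Figure D4:**
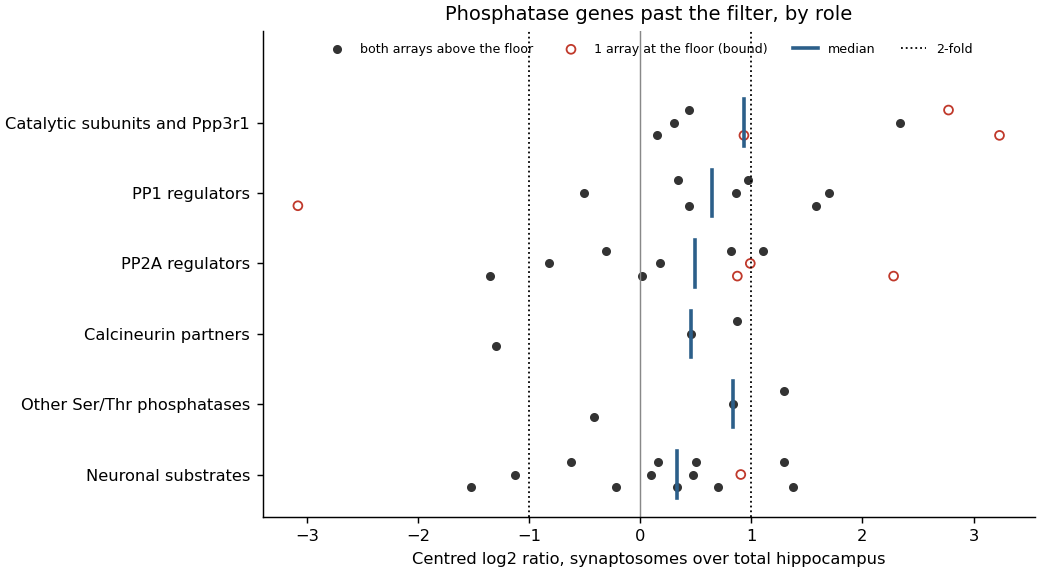
Centred log2 ratio of synaptosomes over total hippocampus of each gene past the filter, by role; filled points have both arrays above the floor, open circles are bounds with 1 array at the floor, blue bars are medians and dotted lines are 2-fold. The medians run from 0.33 for neuronal substrates to 0.93 for the catalytic subunits and Ppp3r1, and the spread within each list is wide.

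Over the whole arrays, the ranks of probe sets correlated between the samples (Spearman, across probe sets, 0.78). Marker genes are counted at 2-fold, where 19.1% of all genes were higher and 14.3% lower, and sums of marker signals run over those past the filter. Of 8 neuronal markers on the array, 7 passed the filter and 4 (Snap25, Nefl, Nefm and Gad1) lay above the spread around 0 on both arrays. Of the 7, 0 were higher and 1 lower, with a median log2 ratio of 0.35, and Slc17a7 was at or below 0 on both arrays. Their signals summed to 78661 in synaptosomes and 142977 in the hippocampus, and without Snap25, which read 32782 and 109086, to 45879 and 33891. Oligodendrocyte markers, with 5 of 5 past the filter, were lower for 3 and higher for 1, and summed to 22946 and 41456. None was at or below 0 with all its probe sets, though 1 of 11 probe sets was, on each array. The hippocampus reading of Cnp, the higher one, 3627, and the synaptosome reading of Mbp, a lower one, 1535, lay within the spread around 0. Astrocyte markers, 7 of 7, had 1 higher and 1 lower and sums of 208142 and 218382. Again none was at or below 0 with all its probe sets, though 1 of 18 probe sets was, on each array. The lower one, Slc1a2, had a log2 ratio of -1.51 with its brightest probe set and -0.77 and 1.24 with others, so its direction is not settled. Of 4 endothelial markers 3 passed, with 2 lower and sums of 4432 and 12999, and Vwf was at or below 0 on both arrays and Kdr in synaptosomes. The synaptosome readings of all 3 (Flt1 2891, Kdr -315 and Pecam1 1856) lay within the spread around 0. So did the hippocampus readings of Kdr, 3891, and Pecam1, 1604. Of 5 microglial markers only Aif1 passed, with 9709 and 5538, while Csf1r was at or below 0 on both arrays and Itgam and C1qb in the hippocampus. The other Aif1 probe sets read 7546 and 1267, a log2 ratio of 2.74, and -692 and -3736, without a ratio. The part of these differences between cell types in the PP1 values was not tested.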

How the data were processed

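RNA of hippocampal synaptosomes and of total hippocampus was measured on 1 Affymetrix array each, made from amplified cDNA per the labels' protocols. The authors deposited linear intensity values, whole numbers for 8799 probe sets including 59 controls. Which scanner software was used, and how background and scale were set, is not given in the sources used here. Means trimmed by 2% at each end were 2504 and 2505 on the arrays, so no further scaling was applied. Of the non-control intensities, 25.2% in synaptosomes and 31.4% in the hippocampus were at or below 0, so low signals carry a large error.

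Probe sets whose mean log2 level was at least 10.07, the median, passed the filter, and a gene took its brightest such probe set. Of 7006 non-control probe sets with 1 symbol in the platform's annotation, 6985 were matched by gene identifier to the GRCr8 gene table. These took the symbol of that table, and the others kept that of the platform. The members and lists were chosen with earlier results of these data known. Named are all members, each list's extremes and its members past 2-fold, and the nearest genes of Ppp1cb and Ppp1cc. Others are marked as chosen after their values were seen. Floors, centring, normalization, filters and the choice of probe set were varied. Python 3.11.15, NumPy 2.4.6, pandas 2.3.3 and matplotlib 3.10.9 were used, and the calculation was tested on simulated data. These were made from the hippocampus array without added noise. Only ratios with both arrays above the floor were checked, so the test does not cover the bounds.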

Additional observations from a re-analysis of the deposited data

How the results depend on the processing

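The count of 3 members at least 2-fold higher remained 3 with a floor at percentile 40, without centring, with quantile normalization, without a filter and with the mean over probe sets. Of all genes, 14.7% were higher without centring, 17.3% with quantile normalization, 15.3% without a filter and 17.8% with the mean over probe sets. With the floor at percentile 40 the share was below the 19.1% found with the floor of 846. At that floor the hippocampus readings of Ppp1ca and Ppp1cc were set to the floor, so an unchanged count does not support a difference. The count was 2 with the floor at percentile 75, where Ppp1ca had a log2 ratio of 0.96 and 10.1% of all genes were higher. It was 0 with the floor at 5280.25, where 3 members had a ratio. It was 1, Ppp1cb, with the filter at percentile 75 and without probe sets whose names carry a suffix. Each of these left 2 members to count, and 14.4% and 19.4% of all genes were then higher. The count of members at least 2-fold lower was 0 under all 9 alternatives, where 7.91% to 19.5% of all genes were lower. The median log2 ratio of members ran from 0.41 with the floor at 5280.25 to 1.38 with the floor at percentile 40, over 2 to 7 members that differ between settings. The ratio of Ppp1ca was 3.74 with the floor at percentile 40. No paired analysis was possible because each group has 1 array. A level was resolved above the spread around 0 on both arrays for Ppp3ca alone among the members.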
